A study of Mus musculus with 5 samples.

Results

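The 10 genes described here encode the lysosomal cathepsins B, C, D, E, H, K, L, S and Z and cystatin C, the secreted inhibitor of the cysteine cathepsins. They were taken from all 5 arrays as the probe sets whose platform gene symbol was Ctsb, Ctsc, Ctsd, Ctse, Ctsh, Ctsk, Ctsl, Ctss, Ctsz or Cst3, which gave 18 of 12422 probe sets and 10 of 8251 named genes. Cathepsin G was left out as a granule protease. The study profiled total RNA of 1 group of 5 mouse samples, which the labels number 1 to 5 and call FLT3+/CD11b+ dendritic cell progenitors from bone marrow, FLT3 being the receptor for a growth factor that early blood cells and dendritic cells depend on and CD11b an adhesion molecule of myeloid cells encoded by Itgam. The labels give no strain, age, treatment or pooling and do not say that the samples came from separate animals, so the spread between them may be partly technical, and no comparison between conditions was possible.

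Cathepsins are proteases made as inactive precursors, tagged with mannose 6-phosphate in the Golgi, carried to lysosomes and activated there at acid pH. Cathepsins B, C, H, K, L, S and Z are cysteine proteases of the papain type, while D and E are aspartic proteases. In dendritic cells and other phagocytes they degrade engulfed proteins, cut the invariant chain that blocks MHC class II molecules and trim the peptides that these molecules present. Cystatin C binds the active site of papain-type proteases and is known as an abundant product of dendritic cells and macrophages.

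Promoter sequences were read for 7 of the 10 genes from RefSeq (build GRCm38.p6). The 3 shown are those that held a searched motif in the 250 bases before the gene's start. Capitals mark CACGTG, the core that MiT/TFE factors such as TFEB bind in lysosomal genes, and GAAANNGAA, part of the element bound by interferon regulatory factors. Both strands were searched. Ctsd (chr7:142387828-142388077, minus strand) had CACGTG at 2 places, which begin 245 and 98 bases before the start, Ctsl (chr13:64370521-64370770, minus strand) had it once, 236 bases before, and Ctss (chr3:95526536-95526785, plus strand) had GAAANNGAA 21 bases before.
Ctsd: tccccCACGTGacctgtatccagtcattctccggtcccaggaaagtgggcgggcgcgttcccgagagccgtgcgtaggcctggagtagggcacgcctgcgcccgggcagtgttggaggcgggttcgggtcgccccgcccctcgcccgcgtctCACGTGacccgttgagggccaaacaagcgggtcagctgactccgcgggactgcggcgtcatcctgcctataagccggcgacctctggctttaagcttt
Ctsl: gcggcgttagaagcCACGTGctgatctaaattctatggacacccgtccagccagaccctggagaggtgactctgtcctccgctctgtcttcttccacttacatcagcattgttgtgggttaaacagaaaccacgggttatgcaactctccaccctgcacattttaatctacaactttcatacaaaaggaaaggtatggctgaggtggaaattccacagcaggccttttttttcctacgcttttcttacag
Ctss: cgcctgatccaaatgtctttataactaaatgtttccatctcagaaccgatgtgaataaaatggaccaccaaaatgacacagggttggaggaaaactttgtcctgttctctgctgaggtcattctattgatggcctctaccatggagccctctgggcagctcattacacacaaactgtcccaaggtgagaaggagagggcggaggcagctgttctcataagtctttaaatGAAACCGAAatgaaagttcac
CACGTG was found in 2 of 7 windows of these genes and in 6.02% of all 32851 RefSeq windows of that length, and GAAANNGAA in 1 of 7 and in 7.13%. The longer TCACGTG, which contains CACGTG, was found in 1 of 7, again Ctsd, and in 3.13% of all windows. These are matches of letters and do not show that a factor binds.

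Signals are array intensities scaled so that every array has a median of 103.4, and means are given ± SD over n = 5 samples. In the absence of detection calls the array median was used as a limit; being above it is a rank on the array, not evidence of expression. A gene with several probe sets is given by the one with the highest mean. Probe sets differ in how strongly they bind, so ranks within an array do not give an order of transcript amounts. Among the 10 genes, 9 exceeded the median on all 5 arrays, against 44.5% of all named genes, 6 exceeded the 75th percentile on all 5, against 21.7%, and 4, namely Ctss, Ctsd, Ctsb and Cst3, exceeded the 95th percentile on all 5, against 3.49%. Ctse is counted among the 9 through a probe set whose target is in doubt, as described with its values. Ctsk was above the median on no array.

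**Figure D1:**
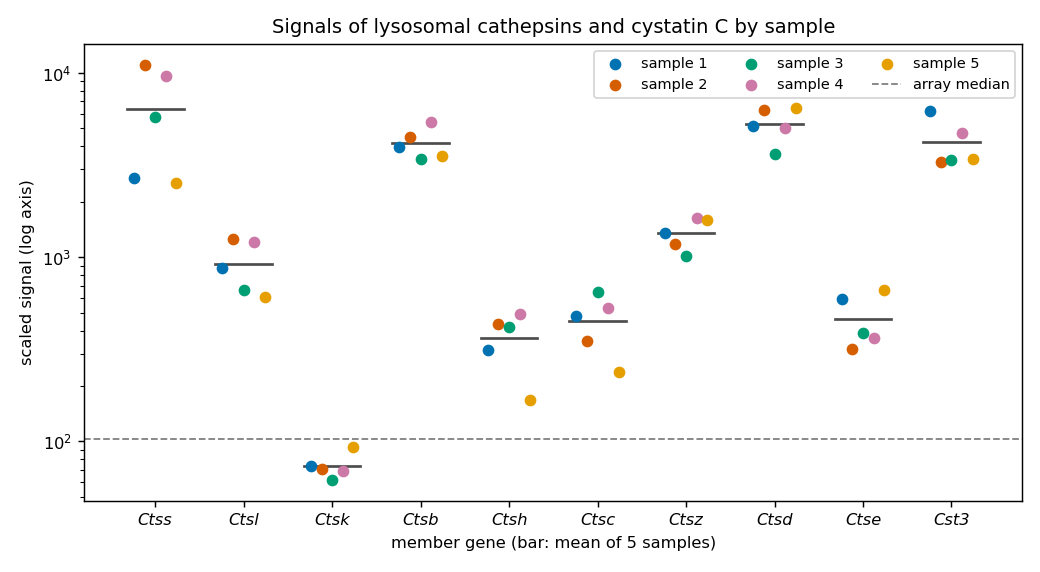
Scaled signal (log axis) of each member gene in samples 1 to 5, with the mean of 5 samples as a bar and the array median of 103.4 as a dashed line. Ctsk is the 1 gene below the line in every sample, and Ctss has the widest scatter, between 2526 and 11079.9.

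Ctss, cathepsin S, which makes the last cuts of the invariant chain in bone marrow-derived antigen-presenting cells, had the widest spread of the members above the limit. Its signals were 2674, 11079.9, 5796, 9637 and 2526 in samples 1 to 5, a mean of 6343 ± 3925. It was high in samples 2 and 4 and low in samples 1 and 5, with sample 3 between. The highest signal was 4.39 times the lowest. Its rank nevertheless stayed between the 97.7th and 99.5th percentile of every array, because probe sets at the top of an array lie far apart in signal. The top of the range also differed between arrays, with a 99th percentile of 5045 in sample 1 and of 7543 in sample 4, and after quantile normalization, which gives all arrays the same distribution, the highest signal of Ctss was 3.36 times the lowest.

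Ctsl, cathepsin L, which cuts the invariant chain in the thymic cortex, had signals of 875, 1249, 667, 1210.3 and 605 in samples 1 to 5, a mean of 921 ± 299. Samples 2 and 4 were again the highest and sample 5 the lowest, over a range of 2.06 times. Ctsk, the collagen-degrading cathepsin K of osteoclasts, had 73.4, 71.0, 61.7, 68.9 and 92.9, all below the median. In the RefSeq gene table Ctsk and Ctss lie next to each other on chromosome 3, and Ctsk ranked between the 38.2nd and 47.6th percentile of the arrays on which Ctss ranked near the top. Among the osteoclast markers, 2 of 5 measured genes exceeded the median on all 5 arrays, and Calcr, the calcitonin receptor gene, did so on none.

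Ctsb, cathepsin B, an endopeptidase that also removes dipeptides from the carboxyl end, had signals of 3958, 4475, 3432, 5397 and 3545 in samples 1 to 5, a mean of 4161 ± 803. By its probe set with the highest mean, Ctsb was among the steadiest members, with the highest signal 1.57 times the lowest. Sample 4 was the highest here, but sample 1 was after quantile normalization. The other probe sets of Ctsb were less steady, with highest signals 2.69, 2.83 and 2.60 times the lowest. Ctsz, cathepsin Z, a carboxypeptidase also called cathepsin X, was as steady as Ctsb by that first probe set. Ctsz had 1360, 1183, 1010.1, 1638 and 1599.6 and a mean of 1358 ± 269. Sample 4 was its highest, but sample 5 was after quantile normalization.

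Ctsh, cathepsin H, chiefly an aminopeptidase, had signals of 313, 433, 415, 490.2 and 167 in samples 1 to 5, a mean of 364 ± 127. Sample 5 stood lowest, below the other 4, which lay between 313 and 490.2. Ctsc, cathepsin C or dipeptidyl peptidase I, which activates the serine proteases of neutrophil and cytotoxic granules, had 482, 351, 651, 532 and 237, a mean of 451 ± 161. It was also lowest in sample 5, while sample 3 was the highest. The granule proteases it activates followed another order. Elane, neutrophil elastase, had 10647, 2027, 2760.0, 6325 and 7356 in samples 1 to 5 and was highest in sample 1 and lowest in sample 2. Ctsg, cathepsin G, had 8592, 2678, 1643, 2396 and 2782, again highest in sample 1.

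Ctsd, cathepsin D, the main aspartic protease of lysosomes, had signals of 5135, 6330.0, 3630, 5050.3 and 6425 in samples 1 to 5, a mean of 5314 ± 1141. Samples 5 and 2 were the highest and sample 3 the lowest, over a range of 1.77 times. It ranked between the 98.2nd and 99.1st percentile of every array. Cst3, cystatin C, had 6198, 3304, 3370.2, 4712 and 3431, a mean of 4203 ± 1259. By the probe set shown, sample 1, where Ctss was low, was the highest for the inhibitor. Samples 2, 3 and 5 lay within 3304 to 3431. The second probe set of Cst3 did not share this, with 215 in sample 1 and its highest signal, 466, in sample 4.

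Ctse, cathepsin E, an aspartic protease of endosomes in antigen-presenting cells and of the stomach lining, gave different answers by probe set. The probe set with the highest mean, which carries the suffix _i_at, had 591, 316, 386, 363 and 664 in samples 1 to 5, and a second, with the suffix _f_at and tied by the platform to the same sequence record, had 783, 320.1, 177, 264 and 679. Both were above the median on all 5 arrays and highest in samples 1 and 5. Their suffixes mark probes that can be shared with other transcripts, and whether the record itself is Ctse sequence was not checked here, so these values may not be those of Ctse. The third, with no such suffix and another sequence record, had 53.5, 545.5, 86.7, 88.2 and 11.5. It exceeded the median in sample 2 alone and was lowest in sample 5, where the other probe sets were near their highest. With suffixed probe sets left out, an alternative chosen after the data were seen, 8 of 10 genes exceeded the median on all arrays, and the level of Ctse is best read as unsettled.

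**Figure D2:**
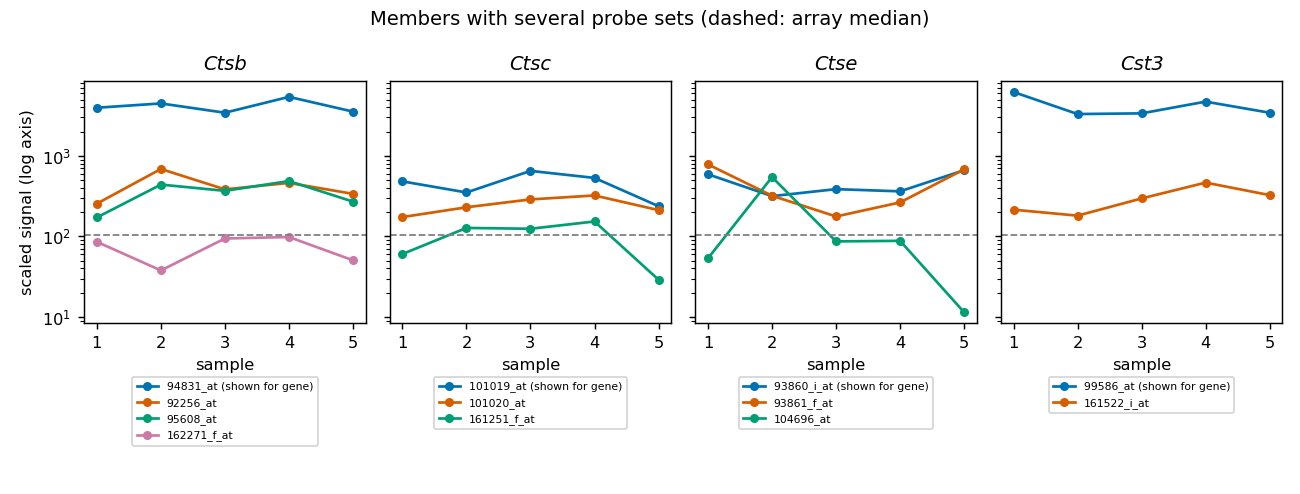
Scaled signal (log axis) in samples 1 to 5 for every probe set of Ctsb, Ctsc, Ctse and Cst3, the 4 members with several probe sets; lines join the values of 1 probe set and the dashed line is the array median of 103.4. For Ctse, the probe set without a suffix peaks in sample 2 at 545.5, while both suffixed probe sets are highest in samples 1 and 5.

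The other members with several probe sets differed in level and also in pattern. For Ctsb the means were 4161, 425, 347 and 73.3, and the 2 middle probe sets were lowest in sample 1, where the one with the highest mean was near its own average. For Ctsc the means were 451, 245 and 98.96, and for Cst3 they were 4203 and 297. The Ctsc probe set with the highest mean was highest in sample 3, and the others were highest in sample 4. The 2 probe sets of Cst3 disagreed on sample 1, which was the highest in one at 6198 and among the low samples in the other at 215. Of all 18 probe sets, 14 exceeded the median on all 5 arrays, against 36.7% of all probe sets. No sample stood apart from the other 4 by Dixon's test at 95% in any of the 18.

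The spread between samples was measured as the SD of log2 signal. Its median over the 9 members above the limit was 0.47, against 0.42 over all 3674 named genes there. The 0.47 is the SD of Ctse itself, by the probe set whose target is in doubt. Ctsb (0.27), Ctsz (0.30), Ctsd (0.33) and Cst3 (0.40) were below 0.42, and Ctse (0.47), Ctsl (0.48), Ctsc (0.57), Ctsh (0.62) and Ctss (1.001) above it. The dimmer probe sets of Ctsb, at 0.53, 0.61 and 0.62, and of Cst3, at 0.53, were also above it. The SD of Ctss exceeded that of 98.4% of the named genes above the limit and of 96.9% of the 288 above the 95th percentile, whose median SD was 0.43. By limma's test of each probe set's variance against the trend over 5814 probe sets, 0 of 14 member probe sets tested passed an adjusted p of 0.05, as did 0 of all 5814 (0%). At an unadjusted p under 0.05 there were 2 of 14 member probe sets, that of Ctss and the _f_at one of Ctse, and 290 of 5814 overall. Both had a limma adjusted p of 0.925. The spread of Ctss therefore did not pass the test after adjustment.

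**Figure D3:**
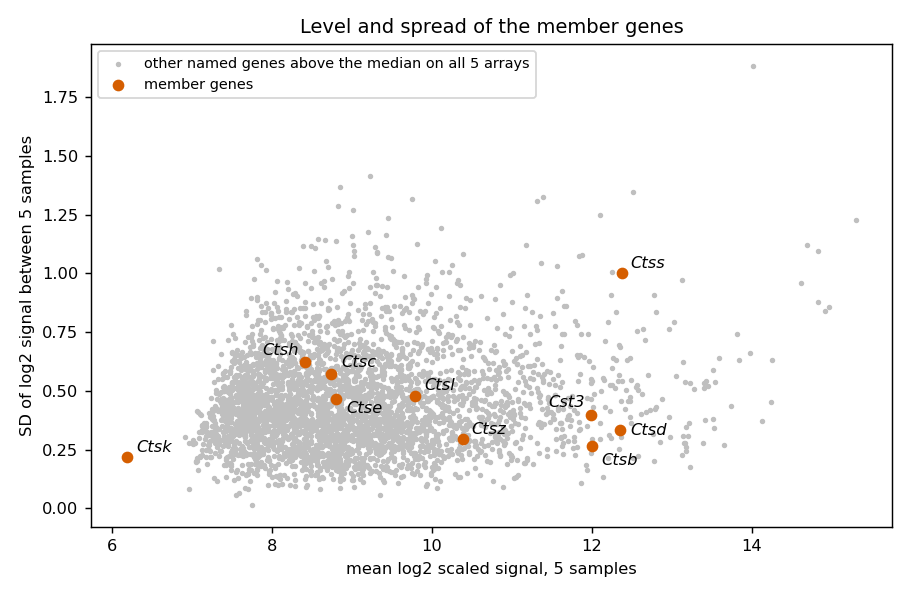
SD of log2 signal between the 5 samples against mean log2 scaled signal, for the 10 member genes (orange) and the other named genes above the median on all 5 arrays (grey). Ctss lies at an SD of 1.001, while Ctsb, Ctsd and Cst3, at similar means, lie between 0.27 and 0.40.

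No sample had all members on one side of their means. The median deviation of the 10 genes from their own 5-sample means, on the log2 scale, was 0.00, 0.04, -0.25, 0.31 and -0.23 in samples 1 to 5, against -0.01, 0.00, -0.03, 0.08 and -0.08 for all named genes. In sample 4, 7 of 10 members were above their mean, as were 55.3% of all named genes. In sample 1, 5 of 10 were, against 46.5% of all named genes. These medians depended on the scaling. After quantile normalization they were 0.17, 0.00, -0.28, 0.07 and -0.05 in samples 1 to 5, with 7 of 10 members above their mean in sample 1, and with a common trimmed mean 0.06, 0.00, -0.21, 0.14 and -0.11. Sample 3 was the lowest under each of the 3 scalings, but not under every choice of probe sets. With every probe set counted, sample 5 was at -0.25 and sample 3 at -0.08. With suffixed probe sets left out, sample 5 was at -0.39 and sample 3 at -0.25. With the main scaling, 7 of 10 were below their mean in sample 3, as were 52.4% of all named genes. In sample 5, 6 of 10 were, against a similar share of 56.4% of all named genes. The 6 below in sample 5 were Ctss at -1.07, Ctsh at -1.03, Ctsc at -0.84, Ctsl at -0.54, Cst3 at -0.25 and Ctsb at -0.21. The other 4 were above their means there, the cysteine cathepsin genes Ctsk by 0.35 and Ctsz by 0.26 and the aspartic ones Ctsd by 0.30 and Ctse by 0.58. The value of Ctse comes from a suffixed probe set, and its probe set without a suffix was at its lowest in that sample. Cysteine cathepsin genes thus lay on both sides in sample 5, where their median was -0.54. Of those above their means, Ctsk was below the array median on every array, which leaves Ctsz.

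**Figure D4:**
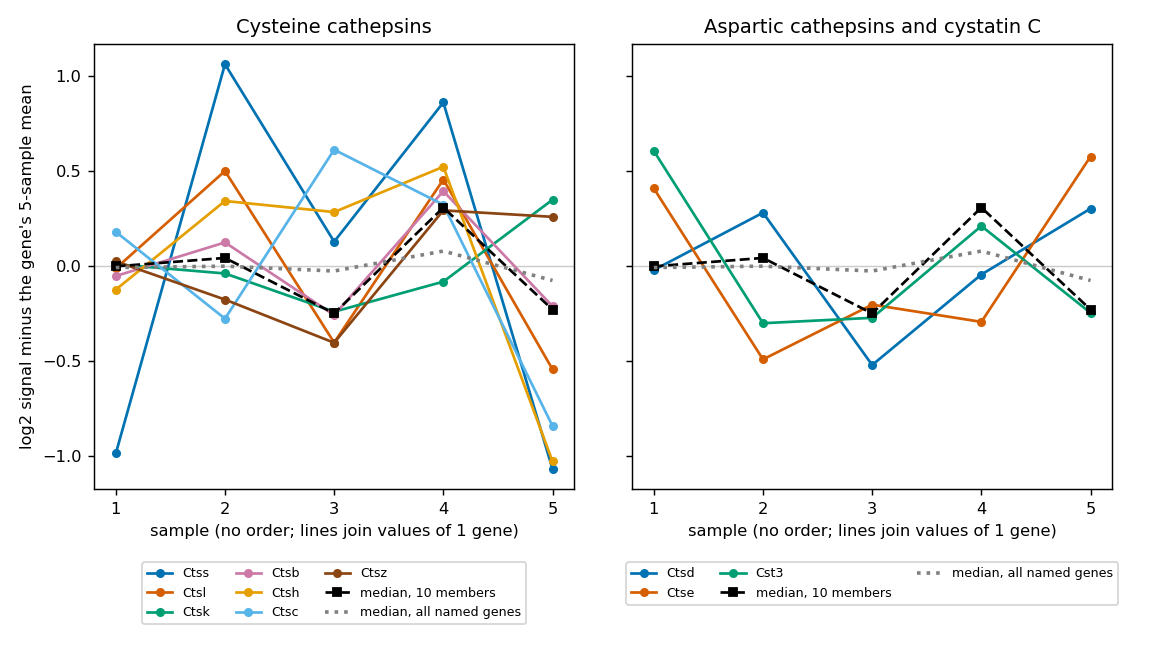
Log2 signal minus the gene's own 5-sample mean for the 7 cysteine cathepsins (left) and for the aspartic cathepsins and cystatin C (right), with the median of the 10 members and of all named genes. Ctss spans -1.07 in sample 5 to 1.06 in sample 2, and Cst3 is highest in sample 1 at 0.61.

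Likeness of pattern was measured as the root mean square difference of these deviations over the 5 samples. Among the 45 pairs of members, the one nearest to Ctss was Ctsh at 0.53, followed by Ctsl at 0.63, and the farthest were Ctse, by the doubtful probe set, at 1.31 and Cst3 at 1.06. Steady genes are near each other by this measure, as for Ctsd and Ctsk at 0.19, the nearest pair. Outside the members, the nearest to Ctss among 3665 named genes above the limit were St8sia4, a polysialyltransferase gene, at 0.15, Ube2b, a ubiquitin-conjugating enzyme gene, at 0.17, and Csf1, which encodes the growth factor M-CSF, at 0.18, against a median of 0.87. Csf1 had signals of 116, 372, 267, 429 and 118 in samples 1 to 5. St8sia4, Ube2b and Csf1 were picked as the nearest of 3665 genes over 5 samples, so their nearness is no test of a link with Ctss. Most of the 3665 varied less than Ctss, which by itself makes the median large.

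Genes that deliver, mature and support the cathepsins were described from fixed lists. All 7 genes of maturation and cofactors exceeded the median on all 5 arrays, where 44.5% of named genes did. Lgmn, the asparaginyl endopeptidase that cleaves cathepsin precursors, had 342, 627, 313, 606 and 239 in samples 1 to 5, so that samples 2 and 4 were the highest and sample 5 the lowest, as for Ctsl. Psap, the saposin precursor, had 2747, 7008, 4826, 8276 and 6733, and Ctsa, the protective protein of lysosomal glycosidases, 1067, 1093, 751, 1172 and 879. All 14 measured genes of the proton pump that acidifies lysosomes were above the limit too, among them Atp6v1a at 3390.3 ± 849, Atp6v1b2 at 2476 ± 324 and Atp6v1c1 at 981 ± 414.

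The delivery list had 1 of 6 measured genes above the limit on all arrays. Gnptab and Gnptg, which encode subunits of the enzyme that begins the mannose 6-phosphate tag, had 73.3 ± 64.9 and 35.6 ± 30.6, and M6pr, a receptor for the tag, 19.0 ± 20.9. These probe sets were near or below the array median, where little can be read. Igf2r, the larger receptor for the tag, lies outside the naming rule and was chosen after its values were seen. It had 98.2, 387, 297, 349 and 77.0 and was low in samples 1 and 5, the samples in which Ctss was low. It exceeded the median on 3 arrays. Gga1 and Gga2 of the same list, also outside that rule, did not share this order. Gga1 had 250, 102, 155, 184 and 214, highest in samples 1 and 5. Gga2, the 1 gene of the list above the limit on all arrays, had 378, 310, 437, 289 and 392, lowest in sample 4. Of the transcription factors of lysosomal genes, 0 of 2 measured exceeded the limit on all arrays, Tfeb at 27.99 ± 19.1 and Mitf at 82.6 ± 46.2.

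Among other inhibitors of cysteine proteases, 5 of 7 measured genes exceeded the limit. Cstb, the cytosolic inhibitor stefin B, had 4640.4, 9460.3, 6568, 7450 and 3817 in samples 1 to 5, highest in sample 2 and lowest in sample 5, as was Ctss. Cst7, cystatin F of leukocyte endosomes and lysosomes, had 1834, 721, 1421, 1239 and 981. Like the brighter of the Cst3 probe sets, it was highest in sample 1 and lowest in sample 2. Cst9 had 70.8 ± 39.5. Of 5 other cathepsin genes measured, Ctsa and Ctsg were above the limit on all arrays, while Ctsf had 66.0 ± 48.0. Cd74, the invariant chain cut by cathepsin S, had 199, 391, 217, 327 and 395, with sample 1 the lowest and samples 2 and 5 the highest.

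Markers of the sorted cells and of other cell types also moved between samples. In bulk samples, fewer cells of a type and less RNA per cell cannot be told apart. Flt3 and Itgam, the genes of the sort, were above the median on all 5 arrays. The summed signal of the 5 progenitor markers in samples 1 to 5 was 2014, 2666, 1231, 2887 and 1350.3, so samples 2 and 4 were the highest, as for Ctss and Ctsl. Not all of its genes shared this order. Flt3 had 571, 1212, 353, 1268 and 318, but Itgam had 789, 546, 223, 343 and 486, highest in sample 1, and Kit had 145, 204, 199, 147 and 222, highest in sample 5. The neutrophil list, with 7 of 7 measured genes above the limit, summed to 49436, 170582, 124762, 256807 and 156737, and the monocyte list, with 3 of 4, to 6538, 10715, 8739, 18497 and 8052. Both sums were lowest in sample 1 and highest in sample 4, but not all of their genes shared this order. In the neutrophil list Ltf, Camp and Lcn2 were lowest in sample 2. The monocyte sum was mostly Lyz2, with 5731, 8423, 7663, 16251 and 7343 in samples 1 to 5. Ccr2 had 185, 1031, 220, 525 and 307, highest in sample 2. Cd14 and Vcan were highest in sample 4 and lowest in sample 5. The macrophage list, with 6 of 9, summed to 4957, 5475, 2740, 3624 and 2688, highest in samples 2 and 1, and the mature dendritic cell list, with 0 of 7 on all arrays and 2 of 7 on none, to 664, 641, 383, 540 and 242. In the macrophage list Apoe had 1158, 1109, 83.4, 16.8 and 80.7 in samples 1 to 5, but Mrc1 was lowest in sample 1, at 301. The mast cell, basophil and eosinophil list, with 3 of 4, summed to 1305, 2938, 2367, 2009 and 1947, highest in sample 2 and lowest in sample 1. Cpa3 was the largest part of that sum, with 2132 in sample 2. Prg2 was instead lowest in sample 2, at 146, and Mcpt8 was highest in sample 3, at 657. The stromal list had 1 of 5 measured genes above the limit and the osteoclast list 2 of 5. The plasmacytoid dendritic cell, B cell, T and NK cell and erythroid lists had 0 of 5, 0 of 4, 0 of 5 and 0 of 3. The part of these cell types in the spread of Ctss was not tested.

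**Figure D5:**
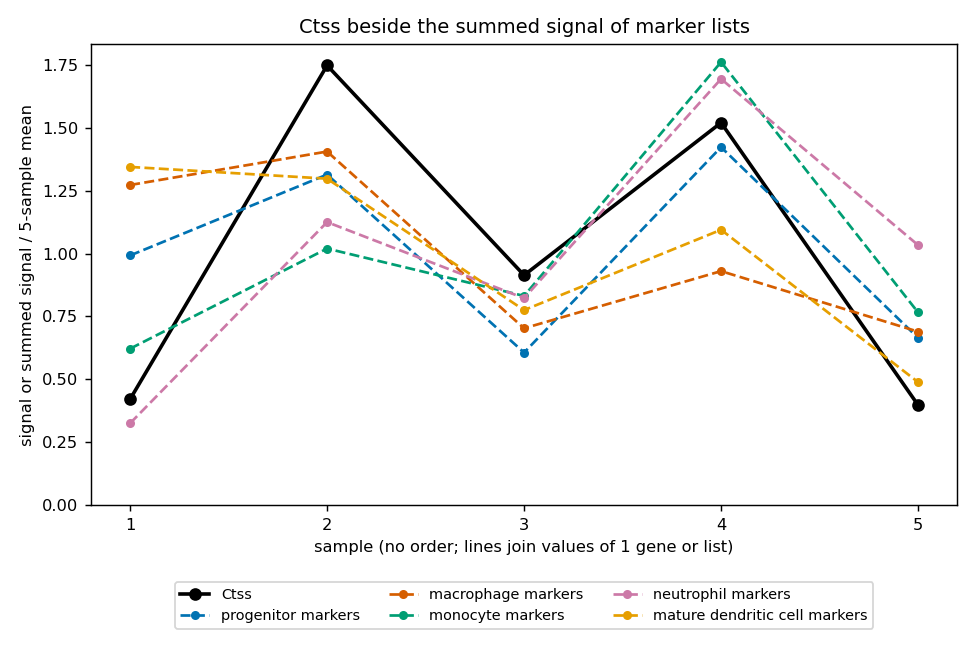
Signal of Ctss and summed signal of 5 marker lists in samples 1 to 5, each divided by its 5-sample mean. Ctss and the progenitor sum are highest in samples 2 and 4. The neutrophil and monocyte sums are lowest in sample 1 and the macrophage sum is highest in samples 2 and 1. Single genes of a list can differ from its sum.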

How the data were processed

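Total RNA of 5 samples was measured on 1-colour probe-set arrays, 1 array per sample, and the number of arrays limits the precision. The deposited values are intensity values on a linear scale for 12488 probe sets; the software and scaling that made them are not given in the sources used here. Medians of the deposited intensity values were 392 in sample 1 and between 66.5 and 81.3 in the others. Means of these values after trimming 2% at each end were 999.8 in sample 1 and between 199.956 and 199.962 in the others. The deposited arrays thus shared nearly the same trimmed mean, except that sample 1 had a higher one. Scaling to a common trimmed mean, an alternative listed below, therefore stays close to the deposited scaling apart from the level of sample 1. The 66 control probe sets were left out, arrays were brought to a median of 103.4 with a single factor each, and before the log2 step values below the 25th percentile (30.0) were set to that value; quoted signals lack this floor. Gene names came from the platform annotation, with 10833 probe sets of 1 symbol, 396 of several and 1193 not listed, and with entrez IDs matched to RefSeq (0 symbols changed).

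The variance test used limma 3.58.1 (R 4.3.3) with a robust trended F distribution. It covered the 5814 probe sets whose mean exceeded the median, Benjamini-Hochberg adjusted over them, and the distribution was fitted to these same probe sets. The test was also run on simulated data, with SDs raised by larger factors than that between Ctss and the median SD. Those data do not show whether it can find a spread like that of Ctss. Other values were computed in Python 3.11.15 and carry no test. Members and lists were chosen with earlier results of these data known. The text names all members, the first 3 measured genes of each pathway list, and the 3 genes nearest to the member with the highest mean and the widest spread; others are said to lie outside that rule or stand as lineage markers. Alternatives were quantile normalization, a common mean after trimming 2% at each end, every probe set, other limits and floors, no filter, a fit that is not robust and leaving out each sample.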

Additional observations from a re-analysis of the deposited data

How the results depend on the processing

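Of 174 values recomputed under alternatives, 166 moved by less than the spread between samples, or by at most 1.5 times for counts and shares. Some of these could not move. Scaling to a common trimmed mean leaves the mean log2 signals as they were, and a gene with 1 probe set cannot change when every probe set is counted. A fall of the share from 90% to 60% lay within the 1.5 times. The count of 166 is therefore no measure of how firm the results are. The share of members above the limit was 90% in the main setting and between 60% (limit at the 75th percentile) and 90% otherwise, with 77.8% for every probe set. Quantile normalization gave 0.074 for the median shift of the members in sample 4, against 0.31, with -0.05 against -0.23 in sample 5 and 0.17 against 0.00 in sample 1, and the cause was not tested. Without sample 5 the median SD of the members was 0.35, the lowest of a range from 0.35 to 0.46 over the samples left out, against 0.43 with all. With every probe set counted, the median SD was 0.53, and averaging probe sets gave mean log2 signals of 10.06 for Cst3, 8.78 for Ctsb, 7.68 for Ctsc and 7.97 for Ctse, since dimmer probe sets entered. With suffixed probe sets left out, Ctse had 6.53. The variance test called 0 member probe sets in each of the 12 settings run, with an adjusted p for Ctss between 0.650 and 0.946; it is made per probe set, so counting every probe set was no separate alternative. No paired analysis was possible because the labels give 1 group. Signals near or below the array median, as for Ctsk, limit what can be read.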
